A study of Homo sapiens with 22 samples.

Results

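Fibrillar collagen is hydroxylated in the endoplasmic reticulum and crosslinked outside the cell. Of the enzyme genes behind these steps, 10 were followed in 11 neuroblastoma cell lines at low and at atmospheric oxygen. The members included P4HA1, P4HA2 and P4HB, subunits of collagen prolyl 4-hydroxylase. The others were PLOD1, PLOD2 and PLOD3, the lysyl hydroxylases, and LOX, LOXL1, LOXL2 and LOXL3, of the lysyl oxidase family. Every probeset that the array annotation assigned to 1 of these genes and to no other was taken. This gave 21 of the 54675 probesets on the array and 10 of the 19775 genes that had a probeset of their own. PLOD1, PLOD3, LOXL1 and LOXL3 were read by 1 probeset each, and the other 6 genes by several.

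Prolyl 4-hydroxylase is built of alpha subunits (P4HA1 and P4HA2 among the members), which carry the catalytic site, and of the beta subunit P4HB. P4HB is also protein disulfide isomerase. Hydroxyproline, the product of prolyl 4-hydroxylase, keeps the collagen triple helix stable at body temperature. The lysyl hydroxylases make the hydroxylysine that sugars and crosslinks attach to. Both kinds of hydroxylase use molecular oxygen, iron and 2-oxoglutarate, and the copper-dependent lysyl oxidases turn lysine residues of secreted collagen and elastin into the aldehydes that crosslink. Several of these genes are known targets of the hypoxia-inducible transcription factors.

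Each cell line was cultured for 18 hours in hypoxia (1% O2) or in normoxia (20% O2), and its total RNA was read on 22 Affymetrix expression arrays of the HG-U133 Plus 2.0 type, with a single array for each line in each condition. The neuroblastic lines were SK-N-SH, SK-N-F1, SK-N-BE2(C), LAN-1, IMR-32 and GI-LI-N, and the MYCN-low adherent lines were ACN, GI-ME-N, SHEP-2, SHEP21N with MYCN overexpression and SHEP21N without MYCN overexpression. The medium of the arrays labelled SHEP21N without overexpression also held 50 ng/mL tetracycline, in both conditions. The 3 SHEP lines came from a laboratory and are related, and the other 8 lines came from a cell line collection. As background, neuroblastic lines grow as small neuron-like cells and adherent lines as flat cells spread on their substrate. The 2 classes follow the names of the cell lines, not a label of the series. A class holds different cell lines rather than replicates. Some lines within a class are related or near-identical on their arrays, yet the main fits treat each line as independent. No cell line had a second array in a condition, so every p-value here rests on the spread between cell lines, and the number of arrays limits the precision. Signals are given as multiples of the array median, called relative signals below, and changes as log2 ratios of the hypoxic to the normoxic array of the same line.

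The markers mostly followed the classes. PHOX2A, HAND2, GATA3, ISL1, DBH and CHGA, 6 of the 7 adrenergic markers measured, were higher in the neuroblastic lines without overlap, as were 4.16% of all probesets. The summed normoxic signal of all 7, in multiples of the array median, was 436 to 692 in the neuroblastic lines and 3.17 to 46.9 in the adherent lines. The 8 mesenchymal markers summed to 219 to 428 in the neuroblastic lines and 785 to 1839 in the adherent lines. Of these 8, 4 were lower in the neuroblastic lines without overlap, as were 1.80% of all probesets. VIM, FN1, PRRX1 and S100A6 overlapped. By the test used for the members 6 of the 8 were lower, where 2.21% of all probesets were. MYCN lay between 72.9 and 545 in the normoxic neuroblastic lines, against 0.0650 to 0.414 in the adherent lines. The label of SK-N-SH, with MYCN at 421 in normoxia, is therefore open to question, since SHEP lines derive from SK-N-SH. Its normoxic array correlated with those of GI-LI-N and IMR-32 at r between 0.934 and 0.942 over 28515 probesets. The other neuroblastic pairs had 0.759 to 0.862. GI-LI-N and IMR-32 correlated with each other at 0.936, and which of these labels hold was not tested. At the brightest MYCN probeset the line labelled SHEP21N with MYCN overexpression gave 0.0650 on its hypoxic and 0.177 on its normoxic array, against 0.134 and 0.0650 in the line without it. Which part of MYCN the construct carries was not examined. The normoxic array of SHEP21N with MYCN overexpression had a GAPDH 3'/5' control ratio of 67.3, a sign of RNA quality, against 0.939 to 1.40 on the other 21 arrays. The ACTB 3'/5' ratio was 94.0 on that array, 5.05 on the normoxic array of SHEP21N without MYCN overexpression and 1.18 to 2.85 on the rest. The lowest signal of the 4 SHEP21N arrays was 3.3, against at most 0.803 on the rest. Schwann cell markers were low except in ACN, where S100B and SOX10 had 39.2 and 9.97 in normoxia. In normoxia the summed endothelial markers were at most 4.01 and the leukocyte marker PTPRC at most 1.38. VEGFA, a reference gene for hypoxia, rose in 11 of 11 cell lines (log2 change 1.99, adjusted p = 0.0208 by limma). It was the 1 of 3 such genes measured that was called higher, where 0.0657% of all genes were. EGLN3 and ADM were not called after adjustment. At an unadjusted limma p under 0.05 all 3 were higher, where 3.16% of all genes were.

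The promoters of 4 members with a probeset that was higher in hypoxia in every cell line are shown. The hypoxia-inducible factors bind the core letters ACGTG or GCGTG. Capitals mark these letters on either strand, so that a core on the opposite strand appears as CACGT or CACGC. Each window runs 5' to 3' from 250 bases before to 50 bases after the start of transcription given by RefSeq on GRCh38.p14. P4HA1 lies at chr10:73096817-73097116 on the minus strand, P4HA2 at chr5:132227042-132227341 on the minus strand, PLOD1 at chr1:11934467-11934766 on the plus strand and LOX at chr5:122078210-122078509 on the minus strand.
P4HA1: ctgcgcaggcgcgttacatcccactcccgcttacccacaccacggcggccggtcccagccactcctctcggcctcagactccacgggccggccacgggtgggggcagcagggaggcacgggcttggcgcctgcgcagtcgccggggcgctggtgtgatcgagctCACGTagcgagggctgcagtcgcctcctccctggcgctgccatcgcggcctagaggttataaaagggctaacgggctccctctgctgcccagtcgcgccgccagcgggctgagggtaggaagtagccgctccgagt
P4HA2: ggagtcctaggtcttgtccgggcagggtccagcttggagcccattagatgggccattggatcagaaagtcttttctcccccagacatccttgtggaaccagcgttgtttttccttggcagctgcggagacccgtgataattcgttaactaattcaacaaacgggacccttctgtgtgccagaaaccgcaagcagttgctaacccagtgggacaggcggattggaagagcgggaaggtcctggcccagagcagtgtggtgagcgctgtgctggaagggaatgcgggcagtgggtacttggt
PLOD1: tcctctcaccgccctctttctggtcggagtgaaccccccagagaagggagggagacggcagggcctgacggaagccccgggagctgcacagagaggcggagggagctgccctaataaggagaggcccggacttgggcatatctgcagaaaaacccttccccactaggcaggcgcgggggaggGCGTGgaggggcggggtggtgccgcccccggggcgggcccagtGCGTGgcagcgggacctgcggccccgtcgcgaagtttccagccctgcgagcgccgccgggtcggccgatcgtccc
LOX: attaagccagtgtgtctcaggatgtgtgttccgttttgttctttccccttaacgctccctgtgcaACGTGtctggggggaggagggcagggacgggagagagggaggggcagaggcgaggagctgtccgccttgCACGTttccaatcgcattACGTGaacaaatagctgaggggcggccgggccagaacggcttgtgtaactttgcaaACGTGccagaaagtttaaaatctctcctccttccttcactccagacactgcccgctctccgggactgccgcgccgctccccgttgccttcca
The LOX window, at the first of 3 listed starts, held 4 cores, PLOD1 held 2, P4HA1 held 1 and P4HA2 held 0. Of the other members PLOD2 had 3 cores, P4HB had 1, and PLOD3, LOXL1 and LOXL3 had 0. A promoter was listed for 9 of the 10 members, all but LOXL2, and 5 of these 9 held at least 1 core, while 48.4% of all 35116 promoters of the same length did. A match describes the letters of this window and is not evidence that a factor binds there.

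Hypoxia was compared with normoxia within cell lines by limma with the cell line as a block, with p-values adjusted over all 54675 probesets. P4HA2 was the only member to pass, at its brightest probeset. It was the 1 of 21 member probesets called higher, where 0.0457% of all probesets were called higher. No member was called lower, where 0.00183% of all probesets were. The list leaned upward beyond that call, as a description only, since the members were chosen with earlier results of these data known. The study had also selected P4HA2 and PLOD1 on these arrays. The median change of the 21 probesets was 0.54, against -0.02 over all probesets, and 5 probesets were higher in 11 of 11 cell lines, where 0.311% of all probesets were. These read P4HA1, P4HA2, PLOD1, LOX and LOXL2. At an unadjusted p under 0.05, 9 member probesets were higher and 0 lower, where 3.35% of all probesets were higher. In bulk RNA, a change in the share of expressing cells and a change in RNA per cell cannot be told apart.

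**Figure D1:**
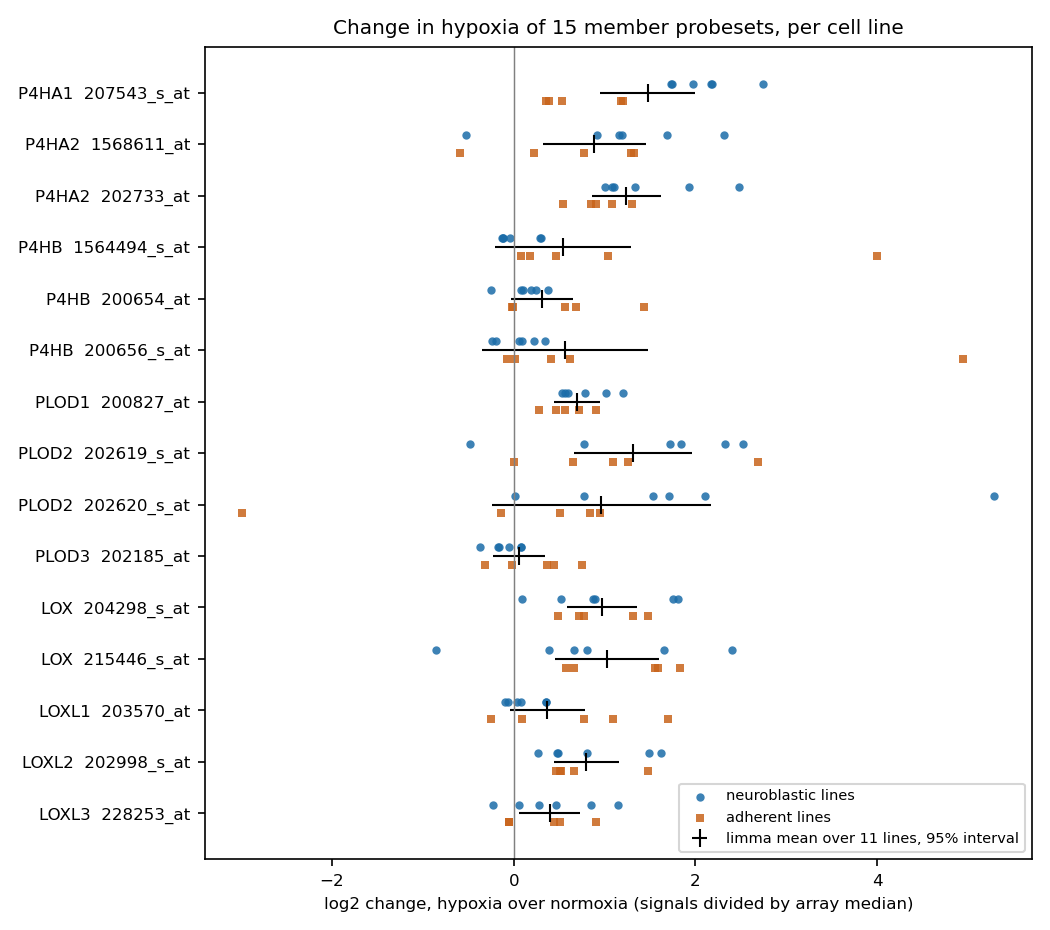
Log2 change in hypoxia over normoxia (horizontal axis) of the 15 member probesets with a mean relative signal of at least 1, with 1 point per cell line, circles for the 6 neuroblastic and squares for the 5 adherent lines. Black bars are the limma mean over 11 lines with its 95% interval. All 15 means lie above 0, and the P4HB points at 3.99 and 4.95 belong to SHEP21N with MYCN overexpression.

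P4HA1, the main catalytic subunit of prolyl 4-hydroxylase in most cell types, had the highest mean change. At 207543_s_at the relative signal in hypoxia was lowest at 6.05, with a median of 30.8 and a highest value of 65.2, and in normoxia the lowest was 3.11, the median 9.23 and the highest 49.9. It was higher in hypoxia in 11 of 11 cell lines, although the ranges of the conditions overlapped widely because the cell lines differed. The mean log2 change was 1.47 (SE 0.24, 95% interval 0.95 to 2.00), a fold of 2.78, with an adjusted p of 0.0810. It stayed outside the limit in the main fit and passed where genes were tested by their brightest probeset, where signals under 50 were raised to 50, and where probesets with a mean signal under 100 were left out. IMR-32 changed most, at 32.8 in hypoxia and 4.91 in normoxia, and SHEP21N with MYCN overexpression least, at 6.05 in hypoxia and 4.74 in normoxia. The other P4HA1 probeset, 243335_at, stayed under the array median on all 22 arrays, and its change was 0.03 (adjusted p = 0.994).

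P4HA2, another catalytic subunit, rose in hypoxia at 202733_at. LAN-1 had 22.6 in hypoxia and 4.05 in normoxia, and SK-N-F1 had 48.4 in hypoxia and 12.7 in normoxia. The remaining neuroblastic lines were between 2.96 and 8.54 in hypoxia and between 1.18 and 3.97 in normoxia. In the adherent lines the hypoxic and normoxic values were 27.3 and 15.1 in ACN, 33.6 and 18 in GI-ME-N, 44.1 and 17.9 in SHEP-2, 19.8 and 13.6 in SHEP21N with MYCN overexpression and 29.5 and 13.9 in SHEP21N without it. Every line was thus higher in hypoxia. The smallest change was that of SHEP21N with MYCN overexpression (0.54), whose normoxic array had the GAPDH ratio of 67.3. The mean log2 change was 1.24 (SE 0.17, 95% interval 0.86 to 1.62), a fold of 2.36, with an adjusted p of 0.0304. The call was lost, at adjusted p between 0.0677 and 0.0978, when any of 9 of the 11 lines was left out, and was kept without LAN-1 (0.0454) and without SHEP21N with MYCN overexpression (0.0377). It was also lost with the 3 SHEP lines averaged (0.105) and with SK-N-SH, IMR-32 and GI-LI-N averaged (0.232). Quantile normalization and the mean of all P4HA2 probesets lost the call as well. The change itself stayed between 0.67 and 1.41 under all 27 alternatives.

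A dimmer P4HA2 probeset, 1568611_at, was higher in 9 of 11 lines, with hypoxic values of 0.68 to 4.98 and normoxic values of 0.298 to 4.57. SK-N-SH and SHEP21N with MYCN overexpression were the exceptions. Its mean change of 0.89 (SE 0.26) had an adjusted p of 0.448. Over the 11 lines its changes and those of 202733_at correlated at r = 0.52, as a description. The probeset 1555027_at was under the array median on all 22 arrays and gave no direction, with changes of -2.31 to 2.95.

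P4HB, the beta subunit that keeps the alpha subunits soluble, was far above the array median on every array at its brightest probeset. At 200654_at the hypoxic relative signals ran from 63.1 over a median of 165 to 254, and the normoxic ones from 30.3 over 127 to 212. The change was 0.31 (SE 0.16, adjusted p = 0.635), with 8 of 11 lines higher. The 95% interval ran from -0.03 to 0.65. The largest change was that of SHEP-2, at 81.5 in hypoxia and 30.3 in normoxia.

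The other P4HB probesets were decided by 1 array. At 200656_s_at SHEP21N with MYCN overexpression had 79.3 in hypoxia and 2.57 in normoxia, a log2 change of 4.95, while the other 10 lines changed by -0.24 to 0.62. At 1564494_s_at it had 15.5 in hypoxia and 0.972 in normoxia, a change of 3.99, and the next largest change was 1.03. The normoxic array is the one with the GAPDH ratio of 67.3, and the part of RNA quality in these values was not tested. Without this line the mean change was 0.13 in place of 0.56 at 200656_s_at, and 0.19 in place of 0.54 at 1564494_s_at. None of these passed the test.

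**Figure D2:**
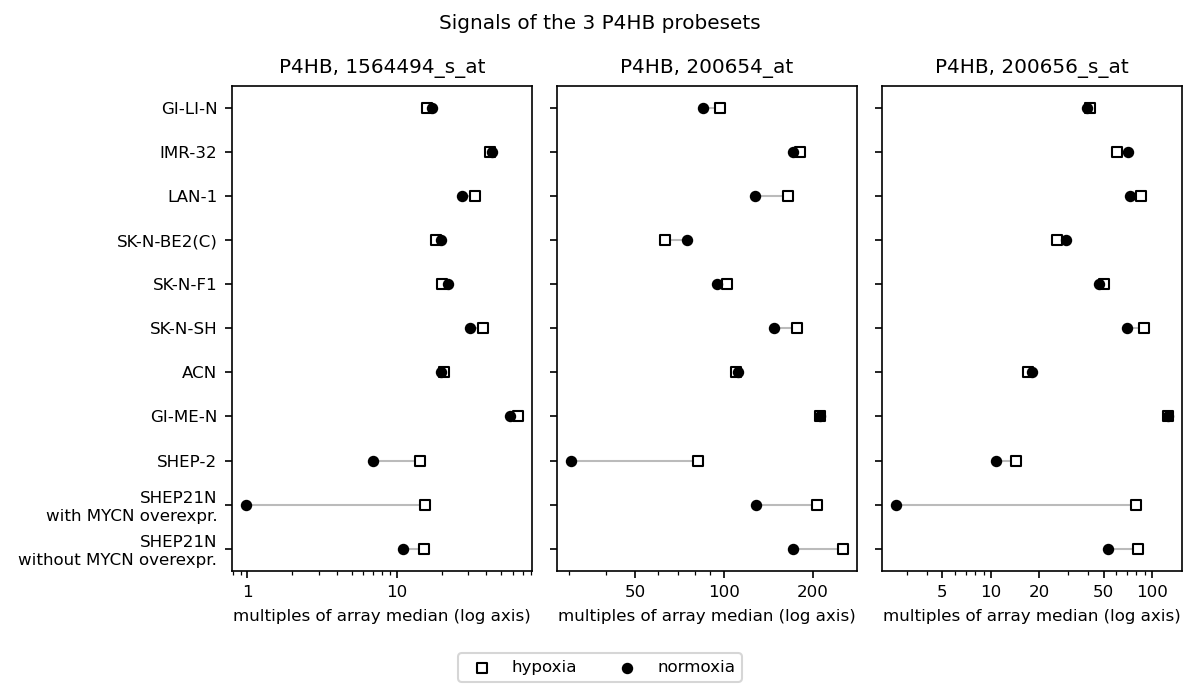
Relative signals (multiples of the array median, horizontal log axes) of the 3 P4HB probesets, where each row is a cell line, hypoxic arrays are open squares and normoxic arrays are filled circles. The normoxic array of SHEP21N with MYCN overexpression stands apart at 1564494_s_at (0.972) and 200656_s_at (2.57), and at 200654_at (128) it does not.

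PLOD1, whose product hydroxylates lysines in the collagen helix, gave the most even change of the lysyl hydroxylases. The relative signal in hypoxia was lowest at 5.91, with a median of 14.7 and a highest value of 31.1, and in normoxia it was lowest at 3.91, with a median of 7.85 and a highest value of 21.1. All 11 lines were higher in hypoxia, by 0.28 in GI-ME-N up to 1.2 in SK-N-BE2(C), whose signals were 14.4 in hypoxia and 6.28 in normoxia. The mean change was 0.69 (SE 0.12, 95% interval 0.44 to 0.95), a fold of 1.62. The adjusted p of 0.0926 missed the limit, and PLOD1 passed with 1 probeset or the probeset mean per gene, with the floor of 50, with the filter at 100 and in the methods' t-test when it was paired by cell line, a pairing the methods do not state. This fold is a mean over the 11 lines, while the methods took the fold for each cell line and asked for at least 2-fold. LAN-1 (2.03) and SK-N-BE2(C) (2.30) were above 2-fold and every other line was below it. The study lists PLOD1 among its signature genes.

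PLOD2, which hydroxylates the telopeptide lysines that form stable crosslinks, was the most variable of the 3 between cell lines. At 202619_s_at the hypoxic signals ran from 0.0475 over a median of 14.7 to 46.6, and the normoxic ones from 0.0475 over 4.10 to 24.3. LAN-1 had 46.6 in hypoxia and 13.0 in normoxia, IMR-32 had 23.6 and 4.10, and GI-LI-N had 15.8 and 4.79. GI-ME-N (0.0475 in both conditions) and SK-N-BE2(C) (0.219 in hypoxia and 0.305 in normoxia) stayed under the array median, and the other 9 lines were higher in hypoxia. The largest change, 2.68, was that of SHEP21N with MYCN overexpression, at 3.29 in hypoxia and 0.513 in normoxia. It rests on the array with the high GAPDH ratio, and at 202620_s_at that line changed by 0.51. The mean change of 1.31 (SE 0.30) had an adjusted p of 0.288. At the brighter probeset 202620_s_at it was 0.96 (SE 0.55, adjusted p = 0.674), again with 9 of 11 lines higher. The highest change at that probeset started from a very dim normoxic signal, at 2.32 in hypoxia and 0.0593 in normoxia for SK-N-F1. GI-ME-N, with the lowest change, was very dim in both conditions, at 0.0221 in hypoxia and 0.175 in normoxia.

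PLOD3, a lysyl hydroxylase that also transfers sugars onto hydroxylysine, gave no common direction. It was higher in hypoxia in 5 of 11 lines, and the change was 0.06 (SE 0.13, adjusted p = 0.935). The 95% interval was -0.23 to 0.34. The hypoxic signals ran from 11.0 over 22.6 to 75.7 and the normoxic ones from 10.4 over 23.6 to 67.1. The sign of the mean turned to -0.01 without SHEP21N with MYCN overexpression and to -0.06 without both SHEP21N lines.

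**Figure D3:**
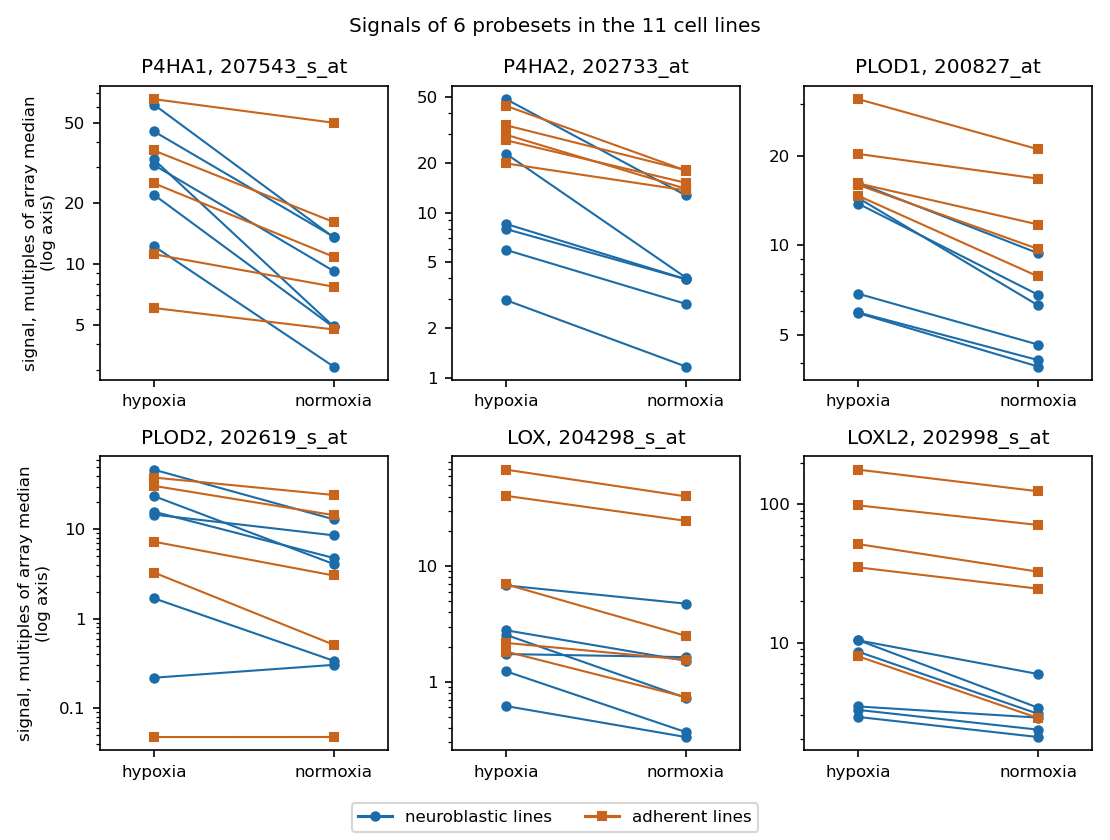
Relative signals (multiples of the array median, vertical log axes) of 6 probesets in hypoxia and normoxia, with 1 line per cell line, circles for neuroblastic and squares for adherent lines. Each gene is shown at the probeset with the smallest p in hypoxia among those with a mean relative signal of at least 1. For LOX (204298_s_at) and PLOD2 (202619_s_at) this is not the brightest probeset. At these probesets of P4HA1, P4HA2, PLOD1, LOX and LOXL2 all 11 cell lines are higher in hypoxia. PLOD2 has 9 of 11 higher and a span from 0.0475 to 46.6. At the brightest LOX probeset, 215446_s_at, 10 of 11 lines are higher.

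LOX, the founding lysyl oxidase, was higher in hypoxia at its 2 bright probesets. At 204298_s_at the hypoxic signals were 0.616 at the lowest, 2.55 at the median and 68.4 at the highest, and the normoxic ones were 0.332, 1.55 and 40.2. All 11 lines were higher, by 0.09 in GI-LI-N up to 1.81 in LAN-1, and the mean change was 0.97 (SE 0.18, 95% interval 0.59 to 1.36, adjusted p = 0.125), which passed with the filter at 100 alone (0.0271). At 215446_s_at, 10 of 11 lines were higher and the mean change was 1.02 (SE 0.26, adjusted p = 0.367), SK-N-BE2(C) being the exception at 0.385 in hypoxia and 0.696 in normoxia. SHEP-2 and GI-ME-N held by far the highest signals in both conditions. There 215446_s_at gave 85 in hypoxia and 56.9 in normoxia for SHEP-2, and 76.9 in hypoxia and 48.4 in normoxia for GI-ME-N. The 2 probesets ordered the normoxic lines alike (r = 0.96 over 11 lines). The remaining LOX probeset, 213640_s_at, was above the array median in SHEP-2 and GI-ME-N only, and its mean change was 0.38 (adjusted p = 0.896).

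LOXL2, a lysyl oxidase whose product also acts on basement membrane collagen, was higher in hypoxia in 11 of 11 lines at 202998_s_at. The hypoxic signals ran from 2.90 over a median of 10.4 to 178, and the normoxic ones from 2.08 over 3.38 to 124. The largest changes were in LAN-1 (10.4 in hypoxia and 3.38 in normoxia), SK-N-F1 (8.58 and 3.05) and ACN (7.95 and 2.85). The mean change was 0.80 (SE 0.16, 95% interval 0.44 to 1.15), a fold of 1.74, with an adjusted p of 0.198, and it passed narrowly with the floor of 50 (0.0491) and the filter at 100 (0.0488). The other 3 LOXL2 probesets had mean relative signals under 1 and changes of 0.54, 0.10 and -0.47.

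LOXL1, which acts on elastic fibers, and LOXL3 had smaller changes. LOXL1 changed by 0.37 (SE 0.19, adjusted p = 0.638) and LOXL3 by 0.39 (SE 0.15, adjusted p = 0.554), with 8 of 11 lines higher for each. The intervals were -0.04 to 0.78 for LOXL1 and 0.06 to 0.73 for LOXL3. LOXL1 was 50.1 in hypoxia and 15.4 in normoxia in SHEP21N with MYCN overexpression, its largest change, which rests on the array with the high GAPDH ratio. In LOXL3 the largest change was that of SK-N-F1, at 11.3 in hypoxia and 5.12 in normoxia.

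Over the 10 genes, 15 probesets had a mean relative signal of at least 1.6 and positive mean changes. The other 6, with means of at most 0.393, changed by -0.47 to 0.54 and none had an adjusted p under 0.652. Averaging all probesets of P4HA2 lowered its change to 0.67, and its call was lost. Whether dim and bright probesets of a gene differed in their change was not tested.

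Whether the response itself differed between the classes was tested by limma on the 11 changes, neuroblastic minus adherent. No member passed after adjustment, and no probeset of the 54675 did (0%). At an unadjusted limma p under 0.05 there was 1 of 21, P4HA1, a count that does not exceed the share of 5.39% of all probesets. The P4HA1 values that follow were picked by this p. The P4HA1 changes at 207543_s_at were 2.18 in GI-LI-N, 2.74 in IMR-32, 2.18 in LAN-1, 1.98 in SK-N-BE2(C), 1.73 in SK-N-F1 and 1.74 in SK-N-SH. In the adherent lines they were 1.18 in ACN, 0.39 in GI-ME-N, 1.21 in SHEP-2, 0.35 in SHEP21N with MYCN overexpression and 0.53 in SHEP21N without it. All 6 neuroblastic changes thus lay above all 5 adherent ones, as at 0.368% of all probesets, and no member had the reverse order, which 0.252% of all probesets had. The means were 2.09 ± 0.37 in the neuroblastic lines and 0.73 ± 0.43 in the adherent lines (SD, n = 6 and 5). The difference was 1.36 on the log2 scale (SE 0.29, 95% interval 0.73 to 2.00), with a limma p of 6.45e-04 and an adjusted p of 0.608. It was 1.10 to 1.53 under the 23 alternatives, which left the adjusted p at 0.481 or more. The difference was 1.27 without SHEP21N with MYCN overexpression, whose normoxic array had the GAPDH ratio of 67.3, and 1.17 without both SHEP21N lines.

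For the other members the class difference of the response was not resolved. It was 0.56 (95% interval -0.16 to 1.27) for P4HA2 at 202733_at, 0.20 (-0.32 to 0.72) for PLOD1, -0.34 (-0.90 to 0.21) for PLOD3, 0.04 (-0.78 to 0.85) for LOX at 204298_s_at and 0.13 (-0.62 to 0.87) for LOXL2 at 202998_s_at. PLOD2 had an estimate of 2.07 (-0.08 to 4.22) at 202620_s_at, where the normoxic signals of SK-N-F1 and GI-ME-N were 0.0593 and 0.175. At 202619_s_at it was 0.32 (-1.04 to 1.68). The difference was -0.41 (-1.07 to 0.26) for P4HB at 200654_at and -0.40 (-1.59 to 0.78) for LOX at 215446_s_at. It was -0.57 (-1.35 to 0.20) for LOXL1 and 0.08 (-0.62 to 0.78) for LOXL3. All these intervals include 0, and none shows that the classes responded alike.

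Baseline expression was then compared between the classes on the 11 normoxic arrays by limma, neuroblastic minus adherent. LOXL2, P4HA2 and PLOD3 were lower in the neuroblastic lines, at 1 probeset each. These were 3 of 21 member probesets, where 2.21% of all probesets were called lower, and 0 of 21 were called higher, where 3.90% were. The median difference was -1.13 over the 21 probesets and 0.04 over all probesets. With the signals as deposited, not divided by the array median, these medians were -1.41 and -0.24, and the share of higher among all called probesets was 48.9% in place of 63.9%. The members' differences are thus to be read against that shift. They are also not independent evidence, as the members were chosen with earlier results of these data known. In normoxia 3 member probesets had all neuroblastic below all adherent lines, where 1.80% of all probesets did. They were PLOD3 and the P4HA2 probesets 202733_at and 1568611_at. None had all neuroblastic above all adherent lines, where 4.16% of all probesets did.

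P4HA2 at 202733_at had 1.18 at the lowest, 3.96 at the median and 12.7 at the highest in the 6 normoxic neuroblastic lines. In the adherent lines it had 15.1 in ACN, 18 in GI-ME-N, 17.9 in SHEP-2, 13.6 in SHEP21N with MYCN overexpression and 13.9 in SHEP21N without it. The adherent lines were close to each other and SK-N-F1, the highest neuroblastic line, lay just below the lowest of them. The difference was -2.07 (SE 0.53, 95% interval -3.21 to -0.93, adjusted p = 0.0379), or 4.19-fold lower in the neuroblastic lines. In hypoxia the classes overlapped, at 2.96 to 48.4 in the neuroblastic and 19.8 to 44.1 in the adherent lines, and the difference was -1.51 (adjusted p = 0.179).

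PLOD3 was 10.4 at the lowest, 16.2 at the median and 23.6 at the highest in the neuroblastic lines. In the adherent lines it was 67.1 in ACN, 32.7 in GI-ME-N, 37.7 in SHEP-2, 44.2 in SHEP21N with MYCN overexpression and 55.7 in SHEP21N without it. No adherent line reached down to the neuroblastic range. The difference was -1.49 (SE 0.39, 95% interval -2.33 to -0.65, adjusted p = 0.0417), or 2.81-fold lower in the neuroblastic lines. On the hypoxic arrays the classes did not overlap either, and the difference was -1.83 (adjusted p = 0.0159).

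LOXL2 at 202998_s_at was 2.08 at the lowest, 2.96 at the median and 5.92 at the highest in the neuroblastic lines. In the adherent lines it was 124 in GI-ME-N, 70.8 in SHEP-2, 24.5 in SHEP21N with MYCN overexpression and 32.5 in SHEP21N without it, but 2.85 in ACN. ACN lay inside the neuroblastic range and was also the line with the Schwann cell markers S100B and SOX10, whose part in this was not tested. The difference was -3.23 (SE 0.79, 95% interval -4.94 to -1.51, adjusted p = 0.0329), or 9.36-fold lower in the neuroblastic lines. Without ACN it was -4.06 (adjusted p = 0.0013). On the hypoxic arrays it was -3.10 (adjusted p = 0.0266).

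None of these 3 baseline calls held once related or near-identical lines were treated as 1. With the SHEP lines averaged the adjusted p was 0.129 for P4HA2, 0.119 for PLOD3 and 0.148 for LOXL2, and with SK-N-SH, IMR-32 and GI-LI-N averaged it was 0.140, 0.178 and 0.132. Without both SHEP21N lines it was 0.112, 0.138 and 0.127. With cell lines left out singly, the P4HA2 call was kept only without SK-N-F1 (0.0106) or GI-ME-N (0.0450), and was 0.0582 to 0.0840 without any other. The PLOD3 call was kept only without GI-ME-N (0.0269) or SK-N-F1 (0.0470), and was 0.0507 to 0.100 otherwise. The LOXL2 call was kept only without ACN, SK-N-BE2(C) (0.0429) or GI-ME-N (0.0437), and was 0.0517 to 0.0780 otherwise. All 3 kept their direction under all 26 alternatives, with differences of -1.32 to -2.42 for P4HA2, -1.25 to -1.83 for PLOD3 and -2.18 to -4.06 for LOXL2.

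**Figure D4:**
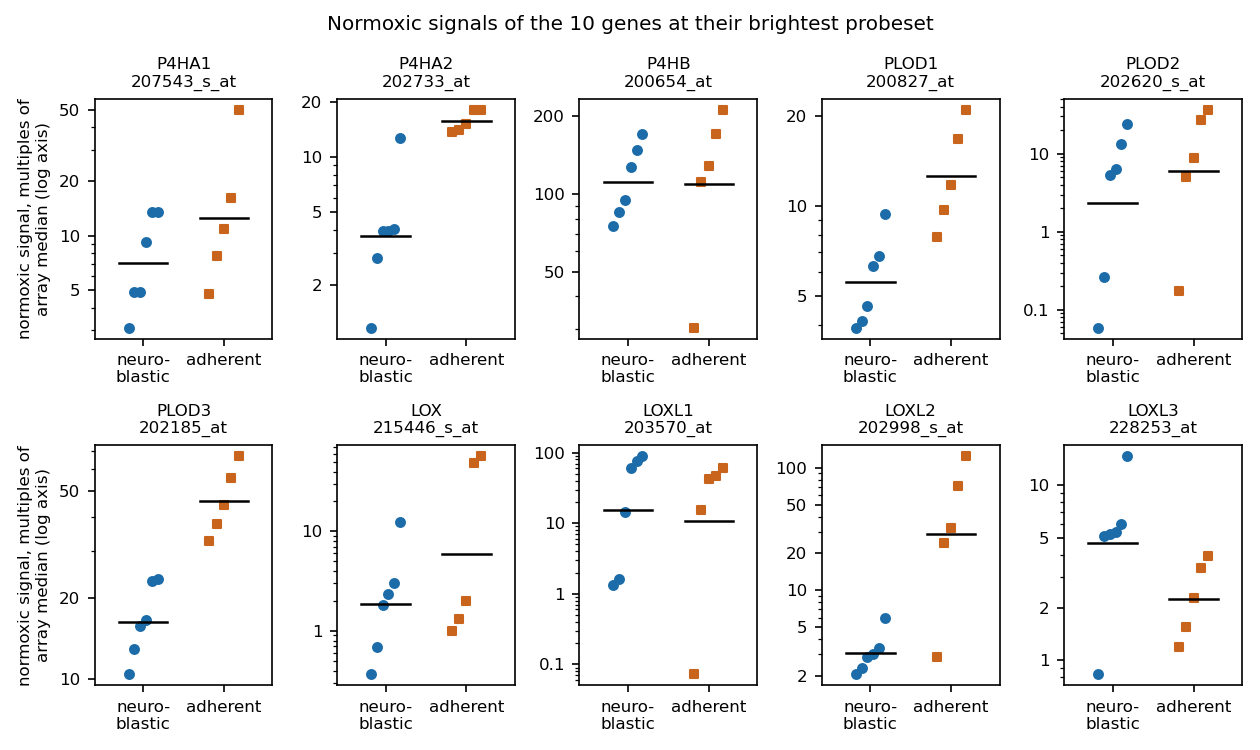
Normoxic relative signals (multiples of the array median, vertical log axes) of the 10 genes at their brightest probeset, with circles for the 6 neuroblastic lines on the left of each panel and squares for the 5 adherent lines on the right. Horizontal bars are geometric means. P4HA2 and PLOD3 do not overlap between the classes, and at LOXL2 the adherent line ACN (2.85) lies within the neuroblastic range.

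PLOD1 was 3.91 to 9.41 in the neuroblastic lines and 7.85 to 21.1 in the adherent lines, with a difference of -1.18 (SE 0.42, adjusted p = 0.113), which passed with the signals as deposited (0.0479), with quantile normalization (0.0360) and with the filter at 100 (0.0482). SK-N-F1 was the only neuroblastic line within the adherent range. P4HA1 was 3.11 to 13.6 in the neuroblastic and 4.74 to 49.9 in the adherent lines, and the difference of -0.83 (adjusted p = 0.448) was 0.53 on the hypoxic arrays. The dimmer P4HA2 probeset 1568611_at, 0.298 to 1.17 in the neuroblastic and 1.28 to 4.57 in the adherent lines, missed the limit at an adjusted p of 0.0622.

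LOX split the adherent class rather than the classes. At 204298_s_at it was 40.2 in SHEP-2 and 24.7 in GI-ME-N, and 2.50 in ACN, 1.55 in SHEP21N with MYCN overexpression and 0.737 in SHEP21N without it. The neuroblastic lines were between 0.332 and 4.74, with SK-N-SH the highest, so 3 of the 5 adherent lines lay in their range. The difference was -2.28 (SE 1.07, adjusted p = 0.214).

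LOXL1 divided both classes. SK-N-SH, IMR-32 and GI-LI-N, the lines with near-identical arrays, had 74.9, 88.7 and 60.9, and LAN-1, SK-N-BE2(C) and SK-N-F1 had 14.3, 1.33 and 1.61. Among the adherent lines GI-ME-N had 60.9, SHEP-2 had 46.6, SHEP21N with MYCN overexpression had 15.4, SHEP21N without it had 42.0 and ACN had 0.0726. The class difference was 0.52 with an interval of -3.27 to 4.32. PLOD2 had a like spread within the classes, with a difference of 0.36 at 202619_s_at and -1.35 at 202620_s_at (adjusted p = 0.914 and 0.661).

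LOXL3 was higher in 5 of the 6 neuroblastic lines than in any adherent line. It was 0.834 at the lowest, 5.31 at the median and 14.6 at the highest in the neuroblastic lines and 1.19 to 3.92 in the adherent lines. LAN-1, at 0.834, was the exception and lay below every adherent line, and the difference of 1.07 (SE 0.65, adjusted p = 0.333) did not pass. P4HB at 200654_at was 74.8 to 171 in the neuroblastic and 30.3 to 212 in the adherent lines, a difference of 0.03 (95% interval -1.09 to 1.15). The other P4HB probesets gave 1.40 at 1564494_s_at (adjusted p = 0.317) and 1.37 at 200656_s_at (adjusted p = 0.327). Without SHEP21N with MYCN overexpression, whose normoxic array had the GAPDH ratio of 67.3, they gave 0.57 and 0.63, and without GI-ME-N 2.05 and 2.03. The part of RNA quality in these values was not tested.

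Across the 11 normoxic arrays, PLOD1 and PLOD3 correlated at r = 0.86, P4HA2 and PLOD3 at 0.80 and P4HA2 and PLOD1 at 0.73, each at its brightest probeset. These are descriptions, and the points share the class difference and the related lines. The changes in hypoxia of P4HA1 and P4HA2 correlated at r = 0.48 over the 11 lines, and those of P4HA1 and PLOD3 at -0.58.

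Other genes of collagen modification, taken at their brightest probeset, gave no call in hypoxia. Of 23 genes for the modification, folding and processing of collagen 22 were measured, and 0 were called higher and 0 lower, against 0.0657% and 0.00506% of the 19775 genes. At an unadjusted limma p under 0.05, 3 were higher and 1 lower, where 3.16% and 5.58% of the 19775 genes were. Their median change was 0.09, against -0.04 over all genes. P3H2, a prolyl 3-hydroxylase, was higher in 11 of 11 lines with a change of 1.02 (adjusted p = 0.425). Its mean change was 1.51 in the neuroblastic lines, from signals mostly under the array median, and 0.42 in the adherent lines. At baseline 2 of the 22 were lower in the neuroblastic lines and 0 higher, where 2.80% and 4.08% of all genes were. At an unadjusted p under 0.05, 4 were lower, where 10.8% of all genes were. P3H2 had 0.0229 to 0.824 in the neuroblastic lines and 8.71 to 53.9 in the adherent lines (adjusted p = 0.000142). All normoxic neuroblastic signals of P3H2 lay under the array median, so no size is given for this difference. CRTAP, the partner of prolyl 3-hydroxylase in its complex, had 20.0 to 42.4 in the neuroblastic and 78.2 to 151 in the adherent lines (difference -1.83, adjusted p = 0.0146).

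Of 11 genes for disulfide formation and chaperones of the endoplasmic reticulum around P4HB, 9 were measured and 0 were called in either comparison by limma, with 1 higher in hypoxia and 1 higher at baseline at an unadjusted p under 0.05, where 3.16% and 12.6% of all genes were. Their median change in hypoxia was 0.03 and their median baseline difference 0.11. ERO1A, which reoxidises protein disulfide isomerase, had a change of 0.35 (adjusted p = 0.597, higher in 9 of 11 lines).

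Of 7 substrates, the fibrillar collagens, elastin and fibrillin, 0 were called in hypoxia. At an unadjusted limma p under 0.05, 1 was higher in hypoxia, where 3.16% of all genes were. At baseline 1 of the 7, COL5A2, was called lower in the neuroblastic lines, where 2.80% of all genes were. At an unadjusted limma p under 0.05, 3 were lower, where 10.8% of all genes were. COL5A2 had 0.0725 to 4.22 in the neuroblastic lines and 3.54 to 111 in the adherent lines (difference -5.88, adjusted p = 0.0056). The lowest neuroblastic signal lay under the array median, which limits how far this size can be read. The median baseline difference of the 7 was -2.82, against 0.01 over all genes. COL1A1, the main chain of type I collagen, spanned 1.12 to 15.3 in the neuroblastic and 0.407 to 384 in the adherent lines, and its difference of -3.30 had an adjusted p of 0.220.

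For 4 members the genes with the most similar pattern over the 22 arrays were looked up among 12519 genes with a mean signal of at least 100. P4HA1 was most like BNIP3L (r = 0.92), EGLN1 (0.83) and BNIP3 (0.81), and P4HA2 was most like BHLHE40 (0.91), PAM (0.89) and LAMB2 (0.85). PLOD2 was most like TMEM133 (0.84), ELOVL2 (0.83) and ERFE (0.81). LOX was most like CAVIN2 (0.88), NPR3 (0.88) and CXCL12 (0.82). These correlations are over arrays that share cell lines and condition and carry no test.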

How the data were processed

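Gene expression was measured in 11 neuroblastoma cell lines in hypoxia and in normoxia, with 1 Affymetrix array per cell line and condition (22 arrays). The deposited values are intensities on a linear scale, which the authors made with MAS5 (Microarray Suite 5.0), scaling each array to an average of 500. The array medians still differed, from 69.4 to 133.6, so the division by the array median that the study's methods describe was done here. The 4 SHEP21N arrays were given to 1 decimal. All 22 arrays were used. Of the 54675 probesets, 41097 name a single gene, 1801 several and 11777 none in the platform annotation. Some genes of the lists were not analysed here.

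Signals were set relative to the median of their array and log2-transformed, with no floor and no filter on low signals. Models were fitted in limma 3.58.1 (R 4.3.3) over all probesets with the Benjamini-Hochberg adjustment and a limit of 0.05. Hypoxia over normoxia was fitted on 22 arrays with the cell line as a block, since both arrays of a pair come from the same cell line. The class difference at baseline was fitted on the 11 normoxic arrays, and that of the response on the 11 within-line changes. Named genes were all member probesets, any gene of 3 lists of collagen modification, chaperones and substrates that passed a test, and for 4 members the 3 genes with the highest correlation. ERO1A and COL1A1 are examples chosen after their values were seen. The brightest probeset of a gene is that with the highest mean log2 signal. The members and lists were chosen with earlier results of these data known, and the study had itself selected P4HA2 and PLOD1 on these arrays, so their direction is not independent evidence. The fits were tested on simulated data with the lines drawn independently, so that test does not cover related lines or a poor array. Promoters were taken from RefSeq (GRCh38.p14) and searched on both strands.

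Alternative settings were quantile normalization, signals not divided by the array median, a floor at 50, a mean signal of 100 as the minimum, 1 probeset or the probeset mean for each gene, stricter limits (0.01, or 2-fold in addition), related lines averaged or left out, leaving out each line in turn, omitting the block, and the methods' t-test, unpaired and, as the methods do not state, paired by cell line. For the baseline, the hypoxic arrays and the mean of both arrays were also used. Leaving out both SHEP21N lines while averaging SK-N-SH, IMR-32 and GI-LI-N was chosen after the data were seen.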

Additional observations from a re-analysis of the deposited data

Results flagged for a closer look

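Member values were taken in 60 groups (the 15 brighter probesets, each class, normoxic signals and changes in hypoxia). Of these, 6 held a cell line far from the rest of its class. Chance flags about 1 in 20 groups of independent normal values. The groups here share cell lines and genes and include related lines, so that rate need not apply. In the adherent lines the log2 change of SHEP21N with MYCN overexpression stood apart at 2 P4HB probesets, at 3.99 for 1564494_s_at (next 1.03) and 4.95 for 200656_s_at (next 0.62). GI-ME-N stood apart with a change of -2.99 at the PLOD2 probeset 202620_s_at (next -0.14), at relative signals of 0.0221 in hypoxia and 0.175 in normoxia. ACN stood apart with a change of 1.48 at the LOXL2 probeset 202998_s_at (next 0.66) and with a normoxic LOXL1 signal of 0.0726 (next 15.4). In the neuroblastic lines the normoxic LOXL3 signal of LAN-1 was 0.834 (next 5.12).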

How the results depend on the processing

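Of 888 values for 15 member probesets under the alternatives, 772 kept their direction and side of the limit, 67 lost a call, 18 gained one and 31 turned sign; none of the 31 had been called. The hypoxia count of 1 member probeset higher became 4 with the floor of 50, 5 with the filter at a mean signal of 100 (which tests fewer probesets), 3 with 1 probeset per gene and 2 in the methods' t-test paired by cell line, a pairing the methods do not state and without their 2-fold limit. It was 0 with quantile normalization, the limit of 0.01, the unpaired t-test, either or both averagings of lines and without both SHEP21N lines, and 0 to 1 with each line left out in turn. Without the cell line block, which gives up the pairing, it was 0. The baseline count of 3 lower became 5 with the signals as deposited and 5 with the filter, 0 with the limit of 0.01, either or both averagings and without both SHEP21N lines, and 0 to 3 with each line left out. The response count was 0 throughout. The cause was not tested.

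The hypoxia change of PLOD3 turned to -0.047 with the SHEP lines averaged, -0.061 with both averagings, -0.065 without both SHEP21N lines, -0.083 when SK-N-SH, IMR-32 and GI-LI-N were also averaged and -0.014 to 0.098 with each line left out. The baseline difference of P4HB at 200654_at turned to -0.25 as deposited, -0.17 with quantile normalization, -0.19 with the SHEP lines, -0.075 with SK-N-SH, IMR-32 and GI-LI-N and -0.29 with both averaged, -0.38 on the hypoxic arrays, -0.17 on the mean of both arrays and -0.43 to 0.27 with each line left out. That of PLOD2 at 202619_s_at turned to -0.023 with quantile normalization, -0.10 with the floor, -0.22 with SK-N-SH, IMR-32 and GI-LI-N averaged, -0.050 without both SHEP21N lines, -0.63 with both of these and -0.97 to 1.28 with each line left out. LOXL1 turned to -0.053 with the floor, -0.62 with SK-N-SH, IMR-32 and GI-LI-N averaged, -0.048 on the hypoxic arrays and -1.27 to 1.23 with each line left out. On the hypoxic arrays P4HA1 was 0.53 and PLOD2 at 202620_s_at 0.72. The response difference of P4HA2 was -0.0014 with the mean of its probesets. Signals under the array median, as at 6 member probesets, limit what can be read from their changes.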
